A study of Mus musculus with 2 samples.

Results

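The cells described here are prostate luminal cells of barcode set 1 in which Krt6a, Clu, Basp1 and Plat were high together. They were taken from a gate that required Epcam and Krt8 transcripts, a Krt5 value under 1 (natural log scale) and no Ptprc transcript, so that the gate held epithelial cells without the basal keratin and without the leukocyte gene. Each gated cell was scored by the mean of its natural log values for the 4 genes, and the top 30% by this score were taken. The rule left 936 cells out of 3121 gated cells, which is 14.8% of the 6332 cells of set 1 and 5.95% of the 15742 cells of the series. They are called Krt6a/Clu-high cells below, and the other 2185 gated cells of set 1 are called the remaining luminal cells.

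The tissue came from R26 mTmG/hAR:Osr1 Cre/+ mice of a mixed C57BL/6 and 129S1/SvImJ background, in which Cre under the Osr1 promoter switches on a human androgen receptor transgene (hARtg) and membrane-bound green fluorescent protein (mGFP). One library was made from prostatic intraepithelial neoplasia (PIN) of mice aged 6 months and 1 library from prostatic adenocarcinoma (PCa) of mice aged 12 months, each by droplet-based 3′ single-cell sequencing of cells dissociated in a medium that held dihydrotestosterone and a ROCK inhibitor. All cells carry the same alleles, and cells outside the Osr1 lineage keep both the transgene and mGFP silent. Cell barcodes end in _1 or _2, called barcode set 1 and barcode set 2. The number of cells in set 1 equals the filtered cell number that the study's methods give for PIN, and the number in set 2 is within a few cells of that for PCa. Since no label or column name ties an ending to a tissue, groups were not taken from this match and no cell was assigned to PIN or PCa, and no sample without hARtg was compared.

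Prostate luminal cells form the inner layer of the gland and secrete the proteins of prostatic fluid under androgen control, while basal cells lie beneath them. Krt6a encodes a keratin induced in wounded and squamous epithelium. Clu encodes clusterin, a secreted chaperone known to increase in the prostate after androgen withdrawal and in injured epithelia. Basp1 encodes a membrane-bound signalling and cytoskeletal protein, and Plat encodes tissue plasminogen activator, a secreted protease. Thbs1, which was not part of the score, encodes the matrix glycoprotein thrombospondin-1.

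With 1 library for each set there were no replicates and no test was possible. All levels are counts of unique molecular identifiers (UMIs), each standing for 1 RNA molecule caught in a droplet, summed over cells and given as counts per 1000000 UMIs (CPM), and 95% intervals cover counting error only. The cells were chosen by their own Krt6a, Clu, Basp1 and Plat values, so each difference from the remaining luminal cells is a description. Krt6a/Clu-high cells had a median of 29345 UMIs and 5020 genes per cell, against 26040 UMIs and 4692 genes in the remaining luminal cells. The mitochondrial share was lower in Krt6a/Clu-high cells (median 3.29% against 4.37%), as was the ribosomal protein share (8.71% against 11.001%). Of the cell barcodes, 67 occurred in both sets, and 11 of the 936 cells had such a barcode.

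Promoter windows of the mouse genome help to place a few of the genes that moved along the score. RefSeq windows of build GRCm38.p6, from 250 bases before to 50 bases after the start of the gene, were found for 72 of the 105 genes named by rule. Basp1 is shown as a gene of the score, Plaur and Cyp1a1 as genes that were high in Krt6a/Clu-high cells, and Pbsn as the androgen-driven secretory gene that was low in them. Capitals mark matches, on either strand, to the AP-1 motif TGANTCA, the TEAD motif GGAATG, the xenobiotic response element core GCGTG and the androgen response element half-site AGAACA.
Basp1, chr15:25413715-25414014, minus strand: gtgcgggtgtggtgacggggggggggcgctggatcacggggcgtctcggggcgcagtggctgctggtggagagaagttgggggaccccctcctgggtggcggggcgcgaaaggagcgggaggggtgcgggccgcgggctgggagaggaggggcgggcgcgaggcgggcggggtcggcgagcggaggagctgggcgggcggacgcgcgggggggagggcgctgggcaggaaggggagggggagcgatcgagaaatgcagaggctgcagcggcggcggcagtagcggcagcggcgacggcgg
Plaur, chr7:24462233-24462532, plus strand: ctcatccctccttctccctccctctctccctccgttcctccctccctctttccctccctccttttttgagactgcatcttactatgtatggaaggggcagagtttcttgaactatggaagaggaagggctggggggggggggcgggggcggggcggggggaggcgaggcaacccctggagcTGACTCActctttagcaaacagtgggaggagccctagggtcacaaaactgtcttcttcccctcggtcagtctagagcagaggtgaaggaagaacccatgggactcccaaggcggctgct
Cyp1a1, chr9:57697363-57697662, plus strand: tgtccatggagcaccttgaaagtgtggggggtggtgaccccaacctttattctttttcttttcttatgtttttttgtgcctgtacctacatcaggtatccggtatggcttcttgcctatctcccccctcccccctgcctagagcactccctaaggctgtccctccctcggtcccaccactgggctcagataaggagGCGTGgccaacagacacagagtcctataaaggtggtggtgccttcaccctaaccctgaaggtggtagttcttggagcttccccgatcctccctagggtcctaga
Pbsn, chrX:77853451-77853750, minus strand: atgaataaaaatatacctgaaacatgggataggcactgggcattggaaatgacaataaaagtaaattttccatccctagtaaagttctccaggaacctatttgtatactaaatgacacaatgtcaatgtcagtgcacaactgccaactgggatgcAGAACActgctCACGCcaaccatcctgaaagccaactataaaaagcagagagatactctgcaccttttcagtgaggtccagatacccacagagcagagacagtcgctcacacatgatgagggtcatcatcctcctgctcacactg
The Plaur window held an AP-1 match 69 bases before the start, the Cyp1a1 window held the xenobiotic core 54 bases before it, and the Pbsn window held an androgen half-site 95 bases and a reverse xenobiotic core 84 bases before it. The Basp1 window held none of these letters. Over all 32851 windows in the table, AP-1 matches were present in 7.81%, TEAD matches in 14.7%, xenobiotic cores in 32.4% and androgen half-sites in 19.0%. A match describes the letters only.

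The score was spread over 2 broad humps in set 1, and the limit of the class lay within the upper hump rather than in the gap. The lowest score in the class was 2.69, the next cell outside it had 2.68, and the highest score was 3.96. Within 0.1 of the limit lay 203 gated cells, and 508 lay within 0.25. In the 100 cells just inside the limit Krt6a stood at 1018 CPM and Clu at 12323 CPM, and in the 100 cells just outside it they stood at 884 CPM and 10868 CPM. Krt17 was at 477 CPM just inside and 503 CPM just outside, and Thbs1 was at 2246 and 2312 CPM. Krt6a and Clu are ordered by the rule itself on the sides of the limit. The class is the upper range of a score by construction, and whether the upper hump is a separate type was not tested. In set 2 the gate held 7701 cells, 81.8% of the set, and the number of cells fell off from scores near 0. Of these cells 34 (0.442%) reached the limit of set 1.

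**Figure D1:**
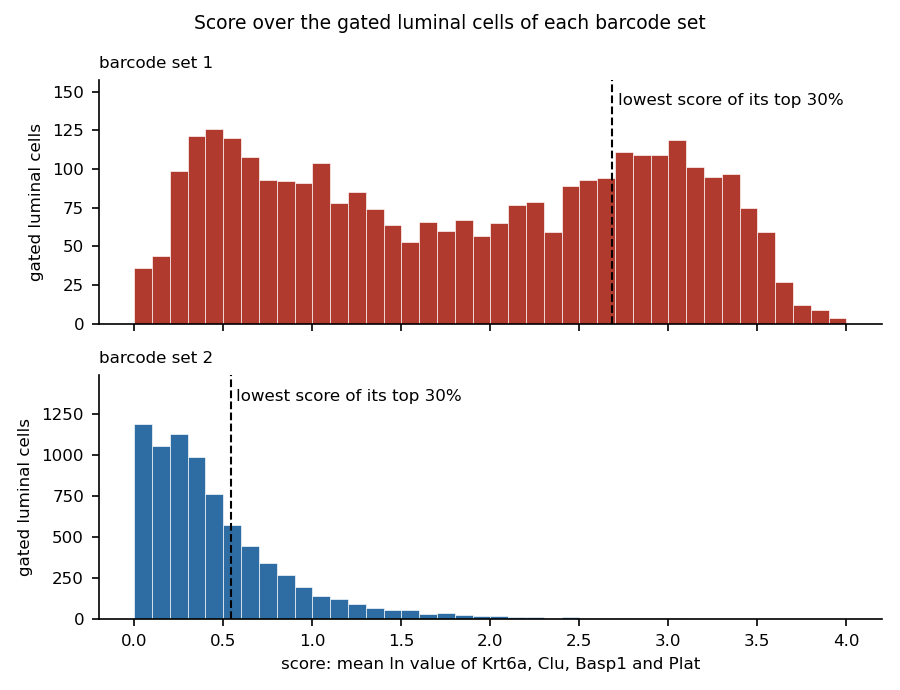
Number of gated luminal cells in each interval of the score (mean natural log value of Krt6a, Clu, Basp1 and Plat) in barcode set 1 (upper) and set 2 (lower), with a dashed line at the lowest score of the top 30% of each set. Set 1 has a hump at low and a hump at high scores with its limit at 2.69 inside the second, while set 2 falls off from 0 with its limit at 0.544.

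The genes of the score gave the levels that chose the cells. Krt6a (chromosome 15, 101689928 to 101694305) was at 1572 CPM (95% interval 1558 to 1586) in Krt6a/Clu-high cells and at 238 CPM in the remaining luminal cells. Krt6a has near-identical relatives such as Krt6b, and how the counting shared reads among them is uncertain. Clu (chromosome 14, 65968483 to 65981548) was at 19992 against 3501 CPM. Basp1 (chromosome 15, 25363277 to 25413764) was at 1518 against 363 CPM, and Plat (chromosome 8, 22757722 to 22782848) at 1042 against 284 CPM. Clu transcripts thus made up about 2% of all UMIs in these cells. Thbs1 (chromosome 2, 118111876 to 118127133) was at 3056 CPM (3036 to 3076) against 810 CPM, a log2 ratio of 1.91 (1.90 to 1.93).

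The 4 genes were found together in nearly every cell of the class. Cells were chosen by the mean of these 4 genes, so the shares with all 4 largely follow from the rule and its limit. All 4 had at least 1 UMI in 920 of the 936 cells (98.3%), and the other 16 cells had 3 of them, against 33.5% of the remaining luminal cells with all 4. After every cell was thinned to 3000 UMIs, 69.8% of Krt6a/Clu-high cells and 8.35% of the remaining luminal cells still had all 4. Krt6a was seen in 92.5% of thinned Krt6a/Clu-high cells (90.6 to 94.1) and 29.8% of remaining luminal cells (27.9 to 31.8). It was seen in 4.10% of leukocytes of set 1 (2.59 to 6.15), which are given as a guide to free RNA. The thinning left out 30 remaining luminal cells, no Krt6a/Clu-high cell and 170 of 706 leukocytes, whose median was 3803 UMIs. Without thinning, Krt6a was seen in 99.5%, 53.1% and 6.37% of these cells. Thbs1 was seen in 97.6% of thinned Krt6a/Clu-high cells, 57.4% of remaining luminal cells and 10.3% of leukocytes.

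Correlations of the 4 genes differed between all gated cells and the class, which was cut on their mean. The 3121 gated cells share library and background but differ in depth. Over them the Pearson correlation of pairs of the 4 genes lay between 0.46 (Basp1 and Plat) and 0.70 (Clu and Basp1). Over the 936 cells it lay between -0.20 (Krt6a and Plat) and 0.04 (Clu and Basp1). The limit was set on the mean of these same genes. Thbs1, outside the score, had a correlation of 0.33 with Basp1 and -0.02 with Plat. Within the class, single cells had Krt6a from 299 CPM at the 5th percentile to 3766 CPM at the 95th, with a median of 1379 CPM. Plat was the most uneven of the 4, from 92.4 to 3005 CPM with a median of 746 CPM.

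The class kept the simple-epithelial keratins of luminal cells and had less Hoxb13. Krt8, which also served in the gate, was at 10755 CPM against 5135 CPM in the remaining luminal cells. Krt18, its partner keratin, was at 7705 against 4375 CPM, and Krt19, a keratin of simple and ductal epithelium, at 8829 against 3616 CPM. Hoxb13, a homeobox gene of prostate identity, was at 37.8 against 178 CPM. Of 13 luminal identity genes tested at 10 CPM or more, 2 (Krt8 and Krt19) were 2-fold or more higher, 2 were lower, Hoxb13 among them, and the median log2 ratio was 0.45. The label of a luminal class thus held for its keratins, while Hoxb13 was lower than in the remaining luminal cells.

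Markers of most other lineages were low, with the exception of Cd74 among the leukocyte genes. The 7 basal markers summed to 486 CPM in the class, 974 CPM in the remaining luminal cells and 10007 CPM in 1591 basal cells of set 1. Trp63, the defining basal transcription factor, was at 0.165 CPM, and Krt14 was at 79.7 CPM in the class against 74.8 CPM in the remaining luminal cells. The 10 leukocyte markers summed to 3042 CPM, against 4370 CPM in the remaining luminal cells and 9081 CPM in leukocytes. Nearly all of this was Cd74, the class II invariant chain, at 2986 CPM, and Ptprc was at 0 by the gate. Per cell the leukocyte markers had a median of 21.2 UMIs per 10000 in the class, 15.005 in the remaining luminal cells and 24.1 in leukocytes, and 98.7% of the class had at least 1 such UMI. The 6 fibroblast markers summed to 46.0 against 197 CPM, mostly Dcn, and the 6 smooth muscle markers to 27.7 against 25.7 CPM, of which Rgs5 held 20.5 CPM in the class and 2.24 CPM outside it. The 6 endothelial markers summed to 7.83 against 7.30 CPM, the 5 neuroendocrine markers measured to 1.16 against 5.31 CPM and the 6 seminal vesicle markers to 0.26 against 1.36 CPM. The 4 erythroid markers summed to 2.97 against 122 CPM, and 10 cells held 98.5% of the Hba-a1 UMIs of the remaining luminal cells.

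Of the 7251 genes with at least 10 CPM over the gated cells, 221 (3.05%) were 2-fold or more higher in Krt6a/Clu-high cells and 424 (5.85%) were 2-fold or more lower. The median log2 ratio over all of them was 0.06. Since the rule used this contrast, these counts describe the class and are the background for the lists that follow.

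Leaving the score genes aside, the highest genes were led by Cyp1a1, Sbsn, Krt17 and Scara3. Cyp1a1, an aryl hydrocarbon receptor target that oxidises foreign compounds, was at 148 CPM (144 to 153) against 27.9 CPM, a log2 ratio of 2.41. Sbsn, which encodes suprabasin of stratified epithelia, was at 295 against 66.8 CPM, and Krt17, a keratin of injured epithelium, at 881 against 216 CPM. Scara3, a scavenger receptor gene, was at 72.0 against 11.7 CPM, the largest plain ratio of these genes (log2 2.63). Krt16, another wound keratin, was at 308 against 75.8 CPM. Among the other genes of this group were Myadm, Ecscr, Rhov, Ecm1, Cd55, Tm4sf1, Tinagl1, Kctd14 and Thbs1, with log2 ratios from 1.66 (Tinagl1) to 1.98 (Myadm). Cd55, a brake on complement, was at 393 against 121 CPM.

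UMIs of these high genes were spread unevenly over the class. Cyp1a1 had a UMI in 35.6% of Krt6a/Clu-high cells, and the 94 cells with most Cyp1a1 held 81.7% of its UMIs. Krt16 was seen in 54.4% of the cells with 65.8% of its UMIs in the top 94. Krt17 was seen in 80.8% with 47.7% in the top 94, and its single-cell level ran from 43.8 CPM at the 25th to 1185 CPM at the 75th percentile. By contrast Tinagl1 was seen in 98.6% and Cd55 in 98.5% of the cells, with 27.7% and 25.9% of their UMIs in the top 94. In thinned cells Cyp1a1 was seen in 17.2% of the class (14.8 to 19.8) and 1.31% of leukocytes (0.527 to 2.67), Cd55 in 62.8% and 4.10%, and Tinagl1 in 65.6% and 2.24%. A cell without a UMI may still express the gene, so these shares do not give the part of the class that expresses it. Over the 936 cells Krt17 and Krt16 had a Pearson correlation of 0.42, and Cyp1a1 and Tiparp, another aryl hydrocarbon receptor target, 0.25.

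The lowest genes were mostly genes of secreted proteins, and for some of them few cells held much of the level outside the class. Jchain, the joining chain of polymeric antibodies, was at 5.09 CPM (4.31 to 5.95) against 581 CPM, but 10 cells held 72.0% of the UMIs in the remaining luminal cells, and its log2 ratio was 0.18 without cells holding 2 or more UMIs of other-lineage markers. Sbp, Spink1, Spink11 and Spink5 had 59.1%, 46.0%, 34.1% and 16.0% of theirs in 10 cells. Pbsn, which encodes probasin, was at 220 CPM (215 to 225) against 4293 CPM (4277 to 4309), with 6.69% in 10 cells. Msmb, which encodes a major secreted protein of the prostate, was at 727 against 12072 CPM. Wfdc3 was at 59.6 against 1211 CPM and H2-Q10, a class Ib histocompatibility gene, at 29.6 against 623 CPM. In 10 of the remaining luminal cells lay 8.29% of the UMIs of Msmb, 9.24% of those of Wfdc3 and 9.81% of those of H2-Q10. The medians of single cells were nearer to each other, with Msmb at 76.8 CPM in the class against 162 CPM and Pbsn at 34.7 against 93.9 CPM. In thinned cells Pbsn was seen in 19.7% of Krt6a/Clu-high cells and 19.8% of leukocytes, and Msmb in 30.7% and 37.1%. Without thinning, Pbsn was seen in 66.2% of the class and 72.1% of the remaining luminal cells, and Msmb in 84.2% and 86.2%. Leukocytes had fewer UMIs (median 3803 against 29345 in the class), so their thinned shares do not set the level of free RNA in the class. How much of these transcripts was free RNA was not tested. Cldn10, a claudin, was at 13.8 against 358 CPM and was seen in 9.83% of the class and 51.4% of the remaining luminal cells. In 10 cells lay 54.2% of its UMIs in the class and 7.38% of those in the remaining luminal cells.

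**Figure D2:**
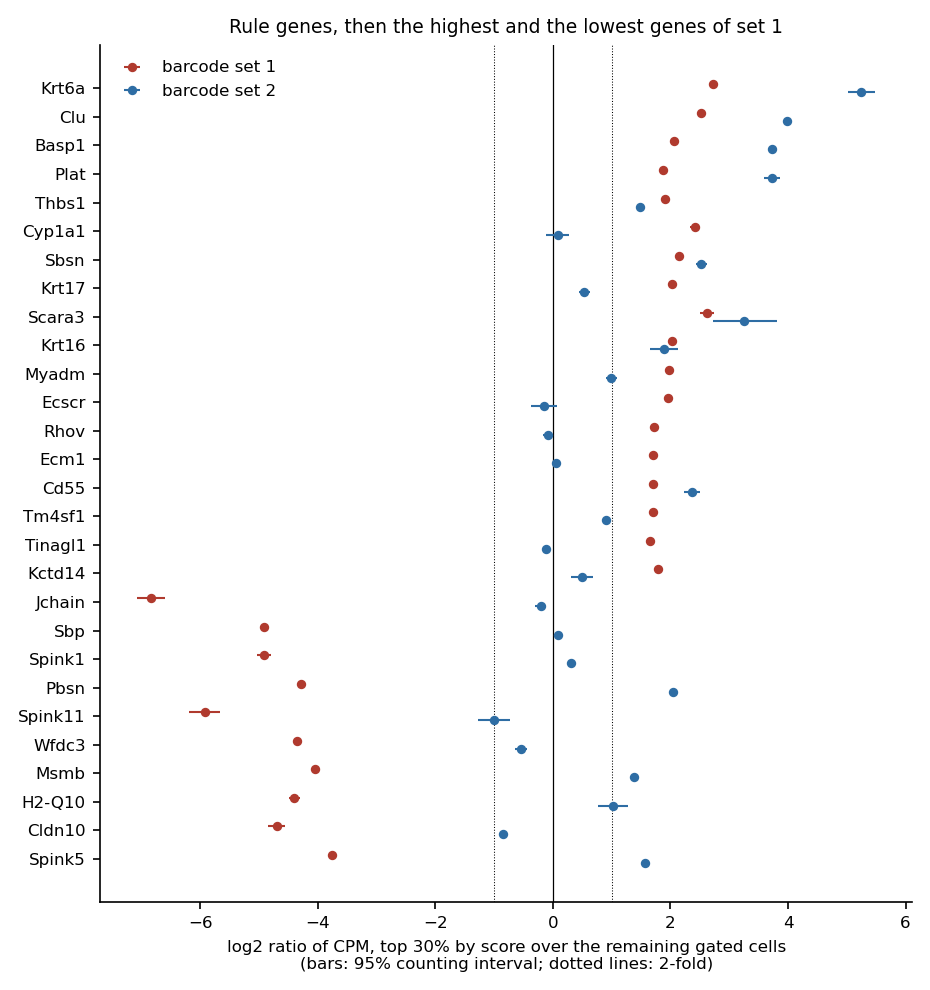
Log2 ratio of CPM in the top 30% by score over the remaining gated cells for the 4 score (rule) genes and Thbs1, then genes among the highest and the 10 lowest of set 1, in barcode set 1 (red) and set 2 (blue), with 95% counting intervals. Pbsn, Msmb and Spink5 lie below 0 in set 1 and above 0 in set 2, and Cyp1a1 stands at 2.41 in set 1 and 0.08 in set 2.

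Among gene lists, the keratin and envelope genes of wounded and squamous epithelium leaned upward. Of 12 genes measured at 10 CPM or more out of 18 listed, 5 were 2-fold or more higher and 1 was lower, with a median log2 ratio of 0.85. One of the 5 was Krt6a itself, and without it the median was 0.83 with 4 of 11 higher. Ivl, which encodes involucrin of the cornified envelope, was at 44.9 against 11.7 CPM, and Krt7, a ductal keratin, was at 474 against 220 CPM. Sprr1a, an envelope precursor gene, was at 2896 against 1597 CPM, under the 2-fold limit. Lgals7 was the gene that was lower, at 23.9 against 86.9 CPM.

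Genes of the actin and membrane cytoskeleton and targets of the YAP and TEAD pathway leaned the same way, in cells that had been through a ROCK inhibitor whose part in these levels was not tested. Of 25 cytoskeletal genes tested, 8 were 2-fold or more higher and none lower, with a median of 0.76. Anxa2, which links membrane to actin, was at 2879 against 1270 CPM, S100a11 at 1628 against 747 CPM and Flna at 91.2 against 28.7 CPM. Of 17 YAP and TEAD targets, 5 were higher and none lower, with a median of 0.81. They included Myof, which encodes the membrane repair protein myoferlin (128 against 40.3 CPM), and Amotl2, a feedback regulator of the pathway (112 against 52.1 CPM). Cyr61 and Ctgf, the best known targets, had log2 ratios of 0.92 and 0.49, and Yap1 itself had -0.01. Thbs1, listed beforehand as a marker of the class, belonged to this list and was among the 5 higher genes.

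In the list of the plasminogen system and proteases, a receptor and metalloproteinase inhibitors were higher, and no listed protease passed the 2-fold limit. The genes tested in this list did not include Plat, a protease gene of the score, which was higher by the choice of the cells. Of 10 genes tested, 3 were 2-fold or more higher and 1 lower, with a median of 0.52. Plaur, the receptor that gathers urokinase at the cell surface and whose promoter window is shown above, was at 1434 CPM (1420 to 1447) against 650 CPM. Timp2 and Timp3, inhibitors of metalloproteinases, were at 875 against 393 CPM and 277 against 130 CPM. Mmp7, a secreted metalloproteinase of glandular epithelium, was at 3690 against 2029 CPM, under the limit. Plau, the ligand of Plaur, was at 10.2 against 5.95 CPM and below the filter. Serpinb2 was lower at 4.33 against 14.7 CPM, with a UMI in 2.99% of the cells.

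Of 11 genes of TGF-beta signalling, matrix and mesenchymal state, 4 were 2-fold or more higher and 2 lower. The 4 were epithelial integrin and laminin genes. Itgb6 was at 81.0 against 24.5 CPM, Itga2 at 20.9 against 6.11 CPM, Itga3 at 57.3 against 26.7 CPM and Lamb3, a laminin-332 chain, at 38.2 against 18.9 CPM. The 2 lower genes were the mesenchymal Sparc (2.58 against 16.7 CPM) and Vim (4.76 against 20.3 CPM), with 70.6% and 60.4% of their UMIs in 10 of the remaining luminal cells, and both were on the other side of 0 (log2 0.24 and 0.098) when cells were thinned before scoring. Among 10 genes of the EGF family, Btc, which encodes betacellulin, was at 113 against 32.1 CPM and Areg, which encodes amphiregulin, at 359 against 163 CPM. Egf was lower at 3.27 against 19.5 CPM. Tgfa at 54.1 against 30.5 CPM and Egfr at 68.0 against 39.5 CPM were under the limit.

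The list of androgen-dependent secretory genes, which also held other genes such as Mme, Fkbp5 and Piezo2, was the most uniform. Of 13 tested, 12 were 2-fold or more lower and none higher, with a median of -2.29. Beside Pbsn, Msmb, Sbp and Spink1 these held Azgp1 (66.4 against 581 CPM), Apof (60.1 against 496 CPM), Mme, a membrane peptidase (82.5 against 317 CPM), and Fkbp5, a direct androgen receptor target (25.8 against 126 CPM). Defb50, a beta-defensin gene, remained at 3535 CPM in the class against 14665 CPM. Piezo2 was the gene between the limits, at 60.2 against 71.1 CPM.

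Genes of the unfolded protein and integrated stress response were lower or similar. Of 14 tested, 6 were 2-fold or more lower and none higher, with a median of -0.73. Herpud1, a component of endoplasmic reticulum degradation, was at 123 against 812 CPM, Ddit3 at 29.7 against 107 CPM, Creld2 at 105 against 263 CPM and Sdf2l1 at 107 against 231 CPM. Hspa5, the main chaperone of the endoplasmic reticulum, was at 2758 against 4537 CPM and Atf4 at 818 against 786 CPM. Of 22 immediate early and dissociation-linked genes, 1 was higher and 2 lower, with a median of -0.17. Dusp1, a phosphatase, was at 844 against 347 CPM, Atf3 at 328 against 1253 CPM and Fos at 121 against 357 CPM, while Jun was at 1909 against 1161 CPM and Hspa1a at 67.6 against 90.3 CPM.

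Inflammatory and other lists were mixed. Of 19 genes of NF-kB and the acute phase, 3 were 2-fold or more higher and 3 lower, with a median of 0.06. Lcn2, which encodes an antimicrobial iron-trap protein, was at 769 against 363 CPM and C3 at 29.1 against 9.11 CPM, whereas Lbp was at 14.1 against 118 CPM and Cxcl10 at 59.4 against 243 CPM. Of 15 genes of proximal luminal and progenitor cells, 2 were higher and 5 lower. Cd44, a hyaluronan receptor, was at 550 against 191 CPM and Ly6d at 613 against 239 CPM, whereas Psca was at 1181 against 2990 CPM, Nupr1 at 385 against 1267 CPM and Aldh1a1 at 67.4 against 175 CPM. The median cell went the other way for Psca, with 362 CPM in the class against 64.2 CPM, and 86.7% of the Psca UMIs of the remaining luminal cells lay in the 218 cells with most. Ly6a at 3977 against 2350 CPM was under the limit. Of 11 genes of p53 and cell cycle arrest, Plk2 was higher (577 against 239 CPM) and Gdf15 lower (6.41 against 15.9 CPM), and Cdkn1a was at 386 against 261 CPM. The proliferation list had 2 genes tested, Pcna and Tyms, neither past the limit, and Mki67 was at 1.75 CPM in the class against 4.76 CPM. Of 9 clusterin-related chaperone and lipoprotein genes, Lgals3 was higher (3346 against 1375 CPM) and Apoe lower (142 against 317 CPM).

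Wnt targets and IGF1 signalling genes had members on both sides. Of 6 Wnt targets tested, Axin2 was higher at 36.7 CPM (34.5 to 38.9) against 14.03 CPM, and Bambi was lower at 6.01 against 19.7 CPM. Myc was at 247 against 179 CPM and Ccnd1 at 67.4 against 52.6 CPM, and Lgr5, a Wnt-linked stem cell gene, was under 1 CPM in both groups. Tcf7l2 was at 65.4 against 48.7 CPM and Tcf4 at 18.5 against 26.6 CPM. Of 12 genes of IGF1 signalling, Irs2 was higher (60.3 against 28.4 CPM) and 4 were lower, among them Mapk13 (66.8 against 163 CPM), Igfbp7 (26.3 against 97.0 CPM) and Igfbp5 (7.20 against 18.0 CPM), whose log2 ratio was 0.90 when cells were thinned before scoring. Igf1r was at 77.2 against 59.2 CPM and Jak2 at 29.4 against 40.8 CPM.

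**Figure D3:**
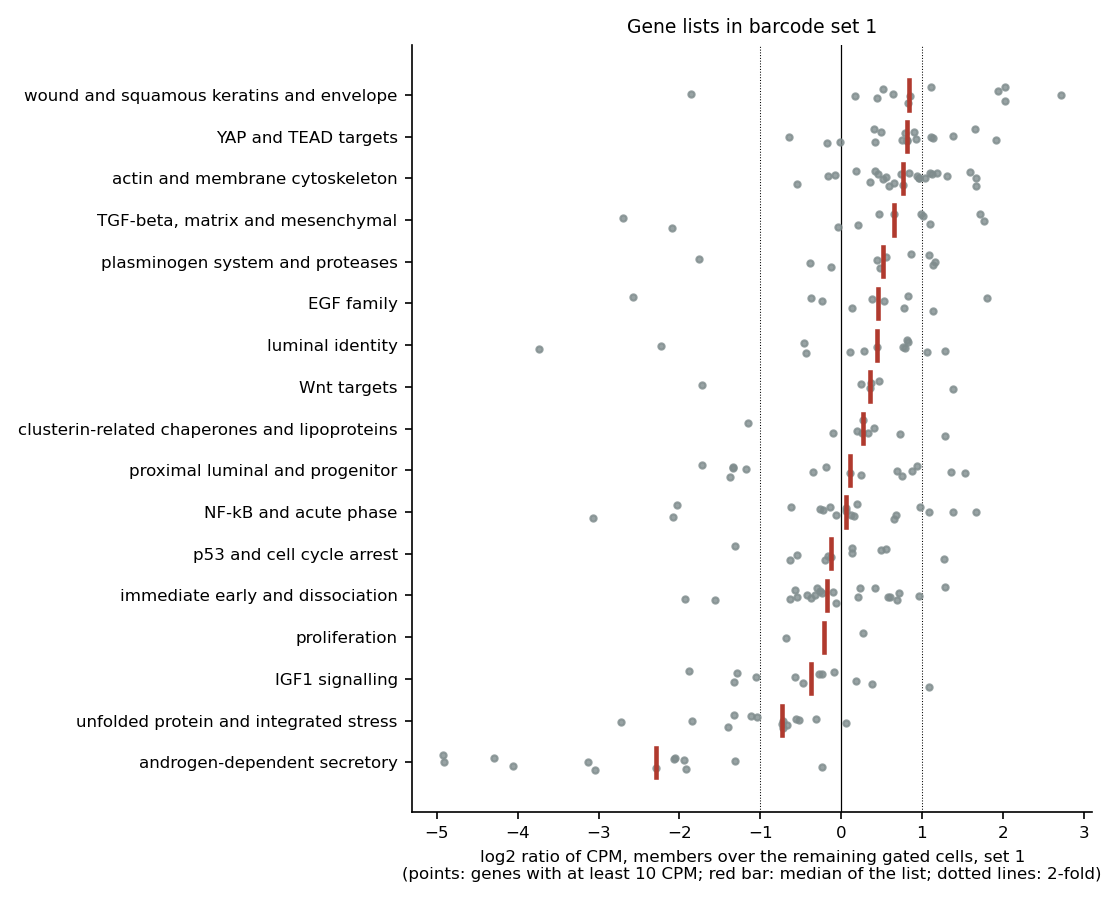
Log2 ratio of CPM in Krt6a/Clu-high cells (members) over the remaining luminal cells of set 1 for each gene with at least 10 CPM (grey points) in 17 gene lists, with the median of each list in red and dotted lines at 2-fold. The medians run from 0.85 for wound and squamous keratins to -2.29 for androgen-dependent secretory genes.

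Transcripts of the transgene and its reporter were concentrated in a small part of the class. The features ARQ and EGFP, taken from their names as hARtg and mGFP, were at 43.6 CPM (41.2 to 46.0) and 218 CPM (212 to 223) in Krt6a/Clu-high cells. The remaining luminal cells had 231 and 1460 CPM, and leukocytes had 11.1 (8.02 to 15.04) and 41.9 CPM (35.6 to 48.9). In thinned cells EGFP was seen in 10.6% of Krt6a/Clu-high cells (8.68 to 12.7), 31.5% of remaining luminal cells and 9.51% of leukocytes (7.17 to 12.3). Without thinning, these shares were 46.9%, 53.9% and 14.2%. Osr1, the driver gene, had no UMI in the class, which allows up to 3 UMIs.

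The 936 cells fell into 497 without an EGFP UMI, 373 with 1 to 4 and 66 with 5 or more, with medians of 27394, 32171 and 38221 UMIs. EGFP was at 2409 CPM (2348 to 2470) and ARQ at 356 CPM (333 to 380) in the 66 cells, which are 7.05% of the class, while the 373 cells with 1 to 4 had ARQ at 16.7 CPM. The genes of the score, whose levels were bounded by the choice of the cells, are given along this split as values. Krt6a was at 1639, 1514 and 1491 CPM from no EGFP UMI to 5 or more, Clu at 20177, 20084 and 18444 CPM, and Plat at 1010, 1081 and 1026 CPM. Krt17 was at 887, 938 and 550 CPM. Msmb was at 495, 899 and 1179 CPM. Krt6a/Clu-high cells made up 33.0% of the gated cells without an EGFP UMI (30.7 to 35.5), 38.2% of those with 1 to 4 (35.2 to 41.3) and 10.3% of those with 5 or more (8.05 to 12.9).

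**Figure D4:**
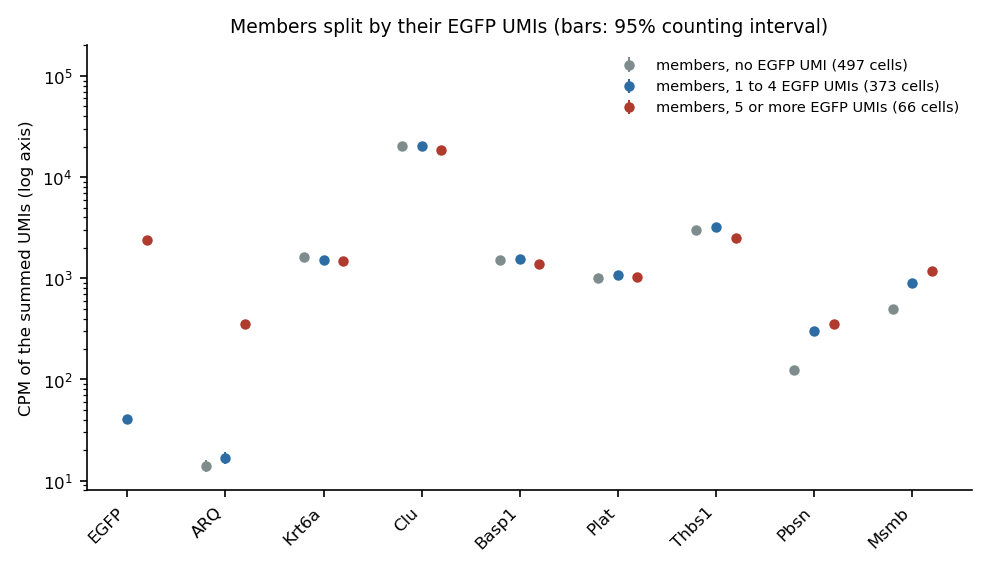
CPM on a log axis of 9 genes in Krt6a/Clu-high cells (members in the legend) without an EGFP UMI (grey, 497 cells), with 1 to 4 (blue, 373 cells) and with 5 or more (red, 66 cells), with 95% counting intervals. EGFP and ARQ stand far higher in the 66 cells, while Krt6a, Clu, Basp1 and Plat, by which the cells were chosen, lie close together in all 3 groups; EGFP is not drawn where it is 0 by choice of the cells.

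Along 10 equal bins of the score, from 313 or 312 cells each, most of these genes changed step by step without a break at the limit of the class, which lies between the 7th and 8th bins. Krt8 went from 2301 CPM in the lowest bin to 8423 in the 7th, 9570 in the 8th and 12035 in the highest bin. Krt19 went from 830 to 10138 CPM, Cd44 from 27.8 to 583 CPM and Plaur from 114 to 1550 CPM. Herpud1 went down at every step from 1555 to 62.0 CPM, as did Hoxb13 from 314 to 22.0 CPM and Pbsn from 12593 to 48.6 CPM. Msmb went from 42267 to 405 CPM with 1 rise, from the 5th to the 6th bin. EGFP was highest in the 3rd bin at 2374 CPM and lowest in the highest bin at 85.5 CPM. Areg reached 399 CPM in the 7th bin and was at 333 CPM in the highest bin. Krt17 stayed between 130 and 186 CPM over the first 5 bins and reached 1209 CPM in the highest bin. The median UMIs per cell ran from 23976 to 29844 over the bins, and their part in these slopes was not tested.

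**Figure D5:**
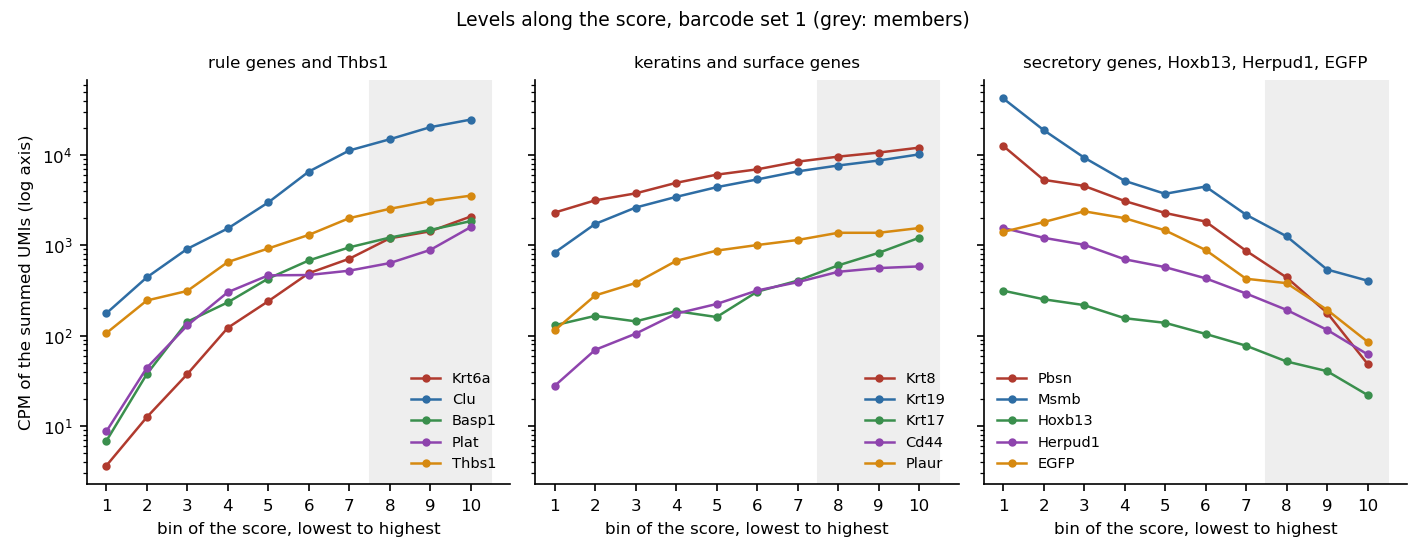
CPM on a log axis along 10 equal bins of the score in the gated luminal cells of barcode set 1, for the score genes and Thbs1 (left), keratins and surface genes (middle) and secretory genes, Hoxb13, Herpud1 and EGFP (right), with the bins of Krt6a/Clu-high cells (members) shaded grey. Krt8, Krt19, Cd44 and Plaur climb over the whole range, and Pbsn, Herpud1 and Hoxb13 go down at every step.

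Within the class there were cells with more secretory and cells with more proximal transcripts. These genes were chosen after their values were seen, for their uneven spread among the 936 cells. Tgm4, a prostate transglutaminase, was at 613 CPM with a single-cell median of 77.3 CPM, and 94 cells held 66.9% of its UMIs. The median of Tgm4 in the remaining luminal cells was lower, at 33.8 CPM. The median of Defb50 went the other way, with 2909 CPM in the class against 5844 CPM. Over the 936 cells Tgm4 had correlations of 0.71 with 9530053A07Rik, 0.65 with C1rb and 0.44 with Defb50. Wfdc2, a secreted protease inhibitor gene of proximal ducts, had a median of 257 CPM, against 76.6 CPM in the remaining luminal cells. In the class 94 cells held 67.0% of the Wfdc2 UMIs, and Wfdc2 correlated with Anxa1 at 0.59, Nupr1 at 0.56 and Psca at 0.49. Between the groups the values were negative, with -0.35 for Tgm4 and Wfdc2 and -0.41 for Defb50 and Wfdc2. Some of these genes also varied with the score genes, with -0.33 for Tgm4 and Clu, -0.28 for Defb50 and Clu, and -0.23 for Nupr1 and Krt6a. The neutrophil-attracting chemokine genes Cxcl1 and Cxcl2 correlated with each other at 0.75 and were seen in 46.5% and 34.2% of the cells. All correlations describe cells of a single library that differ in depth.

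The same rule was applied within set 2 for comparison, and its cells had far lower levels. The top 30% held 2310 cells with scores from 0.544, and all 4 genes were seen in 6.88% of them. Krt6a was at 55.5 CPM there, Clu at 3101, Basp1 at 200, Plat at 57.0 and Thbs1 at 164 CPM, all below the levels of Krt6a/Clu-high cells of set 1. Of 6950 genes tested in set 2, 197 (2.83%) were 2-fold or more higher and 72 (1.04%) lower than in the other 5391 gated cells of that set. The secretory list, with a median of -2.29 in set 1, had a median of 0.40 in set 2 with 5 of 12 genes higher and none lower. Other lists leaned the same way in both sets. The wound keratin list had 5 of 9 genes higher, none lower and a median of 1.05 in set 2. Without Krt6a it had 4 of 8 higher and a median of 0.95. The plasminogen list had 4 of 7 genes higher, none lower and a median of 1.24 there. Proximal luminal genes had 6 of 12 higher, led by Wfdc2 with a log2 ratio of 4.80 and Psca with 3.82, and seminal vesicle markers summed to 5019 CPM against 1063 CPM. Krt8 had a log2 ratio of -0.09 and Cyp1a1 of 0.08 (-0.11 to 0.27) in set 2. EGFP was at 9411 against 10118 CPM there. Whether these contrasts differ between sets could not be tested with 1 library each, and set, tissue and library cannot be told apart.

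Since the remaining luminal cells held strongly secretory cells, the class was also set against the 1149 of them in which Pbsn, Msmb, Sbp and Spink1 together made up under 0.2% of UMIs, a choice made after the data were seen. Of 7241 genes tested, 95 (1.31%) were then 2-fold or more higher in the class and 226 (3.12%) lower. Cyp1a1 kept a log2 ratio of 2.01, Sbsn 1.497, Krt17 1.30 and Thbs1 1.31. Krt8 had 0.77, Krt19 0.86 and Plaur 0.45, below the 2-fold limit. Hoxb13 had -1.503, Herpud1 -1.39 and EGFP -2.90. The stress response list had 1 of 14 genes lower and a median of -0.34, against 6 and -0.73 before. The wound keratin list had 4 of 12 higher and a median of 0.37. Without Krt6a, a gene of the score, it had 3 of 11 higher and a median of 0.33. The plasminogen and NF-kB lists had no gene higher, where each had 3 before, and the TGF-beta list had 1 where it had 4. In the NF-kB list 5 of 19 genes were lower, with a median of -0.36. In the plasminogen list 2 of 11 genes were lower, with a median of 0.38. The YAP and TEAD list had 1 of 17 genes higher and a median of 0.48, and the cytoskeletal list 4 of 25 higher and a median of 0.45. The secretory list, part of which defined these cells, had 3 of 13 genes higher, 4 lower and a median of -0.33.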

How the data were processed

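Cells of 1 PIN and 1 PCa library were dissociated with collagenase and TrypLE in medium with dihydrotestosterone and a ROCK inhibitor, captured with 10x 3′ v2 chemistry, and counted by the authors with Cell Ranger 3.1.0 on mm10 with hARtg and mGFP sequences added. The authors removed empty droplets, multiplets and mitochondria-rich cells with Seurat, so no multiplet caller was run here. The deposited table, 19320 features by 15742 cells, is named as counts but its deposited values are natural log values, ln(1 + 10000 × UMIs/total), and 100% gave back whole UMIs within 0.001. Set 1 held 134850345 UMIs (median 17235 per cell) and set 2 187280119 (median 14824.5).

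UMIs were summed over cells as CPM with exact Poisson intervals. Shares carry Clopper-Pearson intervals and ratios conditional binomial intervals. A sum of 0 was set to 3 UMIs in a ratio. Genes at 10 CPM or more over the gated cells were tested against a 2-fold limit, with no p-values. Named genes were the score genes and Thbs1, the 15 highest and 10 lowest by log2((CPM + 10)/(CPM + 10)) without mitochondrial, ribosomal and predicted genes, 4 per list by absolute ratio, and the genes of the study's pathways. A few named genes are not reported here. Members, lists and rules were chosen with earlier results of these data known. Basal cells had Epcam, Krt14 and a Krt5 value of 1 or more without Ptprc, and leukocytes had Ptprc without Epcam. The steps were tested on simulated data and run in Python 3.11.15 with numpy 2.4.6, scipy 1.17.1 and pandas 2.3.3. The alternatives covered score genes, class size, gate, depth, weighting, scaling, filters, pseudocount, multiplets and reporter.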

Additional observations from a re-analysis of the deposited data

Results flagged for a closer look

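The genes below, all among the 105 named by rule, passed 2-fold in opposite directions in the 2 barcode sets. The value is the log2 ratio of the top 30% by score over the remaining gated cells. Named genes were picked in part as the extremes of set 1 and do not cover all genes tested. How common such opposite ratios are over all genes was therefore not shown. Psca, which was not named by rule, was also lower in set 1 and higher in set 2. The difference between the sets was not tested, since each set is 1 library. Pbsn had -4.29 in set 1 and 2.05 in set 2, Msmb -4.05 and 1.38, and Spink5 -3.75 and 1.57. Lbp had -3.07 and 1.77, Chac1 -1.39 and 1.16, Krt15 -1.68 and 1.14, and Cd52 -2.08 and 1.52. In set 2 the Pbsn ratio was -0.83 when Basp1 was left out of the score, and the Krt15 ratio was -0.14 with every cell weighing the same. In Krt6a/Clu-high cells of set 1, 94 cells held 93.5% of the Krt15 UMIs and 94.2% of the Spink5 UMIs.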

How the results depend on the processing

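Limits of these values are that each set is 1 library, that sets were not assigned to a tissue, that the class is a range of a score, and that intervals cover counting error only. No paired analysis was possible because PIN and PCa were 1 library apiece. Over the alternatives, 83 named ratios of set 1 past 2-fold were recomputed 1740 times, and 1720 values had the same direction and 1637 were still past 2-fold. For 36 such ratios of set 2, 672 of 681 values had the same direction. Part of this agreement was fixed in advance. A CPM filter leaves a ratio as it is, a pseudocount cannot change its direction, and the score genes are ordered by the rule. The cause of the changes below was not tested unless the setting's own construction shows it.

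In set 1, against 221 genes higher and 424 lower, a filter of 5 CPM gave 637 lower, a filter of 50 CPM gave 99 and 149, no filter gave 894 and 2781, and a pseudocount of 10 CPM gave 123 and 219. Against remaining cells poor in secretory transcripts the counts were 95 and 226, and without cells holding 2 or more UMIs of other-lineage markers, which left 177 gated cells, 404 were higher. In set 2, against 197 and 72, the score with Thbs1 gave 42 lower, the score without Clu 14 lower, the score without Basp1 125 and 36, the top 40% 43 lower, the 50 CPM filter 64 and 23, no filter 2186 and 675, the pseudocount 116 and 17, and leaving out cells with other-lineage markers 585 and 204.

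Signs changed for few of the ratios past 2-fold, which are given below. Smaller ratios of set 1 also crossed 0 over the alternatives, among them Krt14 (-1.16 to 1.72), Lgr5 (-1.43 to 0.67) and Cd74 (-0.61 to 0.26). List medians of set 1 that crossed 0 included those of Wnt targets (-0.34 to 0.43), NF-kB and the acute phase (-0.36 to 0.30) and proliferation (-0.72 to 0.50). In set 1 Hba-a1 had 0.060 without Krt6a and 0.082 without Basp1 in the score. With cells thinned before the score, Sparc had 0.24, Vim 0.098 and Igfbp5 0.90. Without cells holding other-lineage markers Jchain had 0.18, Nupr1 0.29, Vim 0.35, Bambi 0.40, Igfbp7 1.64, Igfbp5 2.09, Irs2 -0.25 and Krt15 0.96. When Cd74, Cd52 and Dcn, which luminal cells hold widely, were not counted (chosen after seeing the data, 829 of 2763 cells), Jchain had 0.16, Vim 0.093 and Hba-a1 0.13. Against cells poor in secretory transcripts Sbp had 1.07, Spink1 2.28, Pbsn 0.54 and Msmb 1.99, which follows from choosing those cells by these 4 genes. In set 2 Spink11 had 1.02 with Thbs1 in the score and 3.97 without cells holding other-lineage markers, where Cd52 had -0.14. The score without Basp1 gave Pbsn -0.83, Egf -0.14 and Cd74 -0.87. Thinning gave H2-Q10 -0.21 and Krt15 -0.15, and equal weight of cells gave Krt15 -0.14. The alternative of gated cells without an EGFP UMI was not run in set 2, where under 50 cells would be left in the class.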
